A study of Mus musculus with 9 samples.

Results

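A set of 8 genes of fatty acid oxidation and its transcriptional control was examined in orthotopic Hepa1-6 liver tumors: Ppara, Fabp1, Cpt1a, Cpt2, Acadm, Ehhadh, Acaa1b and Pdk4. They are 8 of the 52176 genes named in the deposited tables of 9 tumors, and each was found by its symbol in the table of every tumor. Hepa1-6 is a mouse hepatoma cell line. It was first grown as subcutaneous tumors, and pieces of these were placed in the left liver lobe. The recipients were male C57BL/6 mice that were 6 to 8 weeks old when obtained. The 3 tumors of the PBS group came from mice injected with PBS, and the 6 others came from mice given an antibody against the T cell checkpoint receptor PD-1 (clone RMP1-14, 5 mg per kg). All mice received 5 intraperitoneal injections, given every 4 days from day 10 to day 26, and whole tumors freed of surrounding tissue were collected on day 27. The 3 smallest antibody-treated tumors were designated responsive and the 3 largest nonresponsive, with intermediate tumors left out, so both groups were defined by tumor size at collection and not by allocation. All tumors derive from 1 cell line in 1 inbred strain, and each sample is bulk tissue that may also hold host cells.

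PPAR-alpha, the product of Ppara, is a nuclear receptor that binds fatty acids, pairs with retinoid X receptors on DNA and turns on genes of fatty acid use in liver during fasting. Long-chain fatty acids reach it and the organelles with the help of the binding protein FABP1, enter mitochondria through the carnitine shuttle and are shortened there or in peroxisomes by repeated cycles of oxidation. In hepatocytes many of the enzymes of these steps are themselves targets of the receptor.

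The 250 bases before the start of each gene were searched for the core motif to which nuclear receptors of this class bind, AGGTCA or its complement TGACCT, because the genes share a known regulator. RefSeq promoters of build GRCm38.p6 were found for all 8 genes. The core motif occurred once in the windows of Cpt1a and Acadm and at 2 places in that of Fabp1, and it was not found in the windows of the other 5 genes. Of 32851 mouse promoters of this length, 14.0% held it. Its direct repeat with a spacer of 1 base, AGGTCANAGGTCA on either strand, overlaps the core motif and was in none of the 8 windows and in 0.0335% of all promoters. The matches outside annotated exons are shown with their surroundings in the direction of the gene, with the core motif in capitals. That of Cpt1a begins 94 bases before the start (chr19:3323177-3323242, plus strand), that of Acadm 249 bases before it (chr3:153944857-153944893, minus strand) and that of Fabp1 67 bases before it (chr6:71199782-71199826, plus strand).
Cpt1a: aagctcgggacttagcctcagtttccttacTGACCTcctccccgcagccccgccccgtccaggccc
Acadm: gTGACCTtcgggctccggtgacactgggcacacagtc
Fabp1: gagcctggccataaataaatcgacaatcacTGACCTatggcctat
Base composition differed widely among the windows. GC content was 76.4% for Ppara and 41.6% for Acaa1b, the extremes of the 8, against a median of 52.4% over all promoters. A match is a stretch of letters and not a measured binding site, and no match says only that these letters are absent from the window.

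Expression was measured as FPKM, a fragment count divided by transcript length and by the mapped total of the tumor, so levels of different genes can be set side by side. The number of fragments sequenced is not in the tables, and depth could be compared only relative to 1 tumor. The estimate lay between 0.936 and 1.07 times the depth of PBS tumor 1. It rested on 230 to 435 genes in each other tumor. Only ratios close to that of PBS tumor 1 were searched, so a larger difference in depth could not have shown. Entries naming no gene took from 19.2% of the summed FPKM in PBS tumor 3 to 81.5% in PBS tumor 1. In nonresponsive tumors they took 70.4% to 73.2%. The number of named entries reaching an FPKM of 1 ran from 12533 in PBS tumor 1 to 13328 in PBS tumor 2. No tumors shared values to an extent that would mark a duplicate. Each tumor is 1 mouse.

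Summed FPKM of 16 hepatocyte markers differed between tumors more than the sum of 7 fetal liver and tumor markers. It was 429, 3449 and 4876 in PBS tumors 1 to 3, 11515, 5111 and 3280 in nonresponsive tumors 1 to 3, and 15776, 9935 and 12669 in responsive tumors 1 to 3. None of the 16 markers was at 0 in all tumors. PBS tumor 1 stood apart, with Alb (albumin) at 173 FPKM against 835 to 5041 in the other 8 tumors. The sum of 7 fetal liver and tumor markers lay between 145 and 150 in the PBS group, 113 and 181 in the nonresponsive group and 121 and 156 in the responsive group. Cd24a alone was at 70.8 to 116 FPKM in that list, and Afp, H19 and Epcam varied more between tumors than the sum. Afp, the alpha-fetoprotein gene, ranged from 0.321 FPKM in nonresponsive tumor 1 to 56.5 in nonresponsive tumor 3. Over the 9 tumors H19 ranged from 2.87 to 39.3 FPKM and Epcam from 2.14 to 20.9. Markers of other tissues were high in some tumors. Pancreatic acinar markers summed to 1147 in nonresponsive tumor 2 against 11.3 to 18.1 elsewhere. Skeletal muscle markers summed to 265 in nonresponsive tumor 3 against 5.39 to 94.0 elsewhere. The 94.0 was that of PBS tumor 1, against 9.12 and 13.7 in the other PBS tumors, with Mylpf at 42.7 and Ckm at 12.5. In responsive tumor 2 the muscle sum was 76.1, almost all Tnnt3, at 74.8. Adipocyte markers summed to 57.5 in nonresponsive tumor 2. The adipocyte sum was 39.7 in nonresponsive tumor 1, 10.8 in nonresponsive tumor 3 and 0 to 4.01 in the other groups. In nonresponsive tumor 1 it was almost all Retn, at 39.3, with Adipoq at 0.181 and Plin1 and Cfd at 0, whereas Adipoq was at 6.54 in nonresponsive tumor 2 and 1.01 in nonresponsive tumor 3. In bulk tissue, fewer cells of a type and less RNA per cell cannot be told apart, and neither can transcripts of tumor cells and of host liver cells.

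The group means of FPKM were ordered PBS, nonresponsive, responsive, from low to high, for each of the 8 genes. Responsive tumor 1 had the highest value of all 8 genes. PBS tumor 1 had the lowest value of 7 genes, and PBS tumor 2 that of Cpt2. Within the responsive group, tumor 2 was lowest for all 8 genes, and within the nonresponsive group, tumor 1 was highest for 7.

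**Figure D1:**
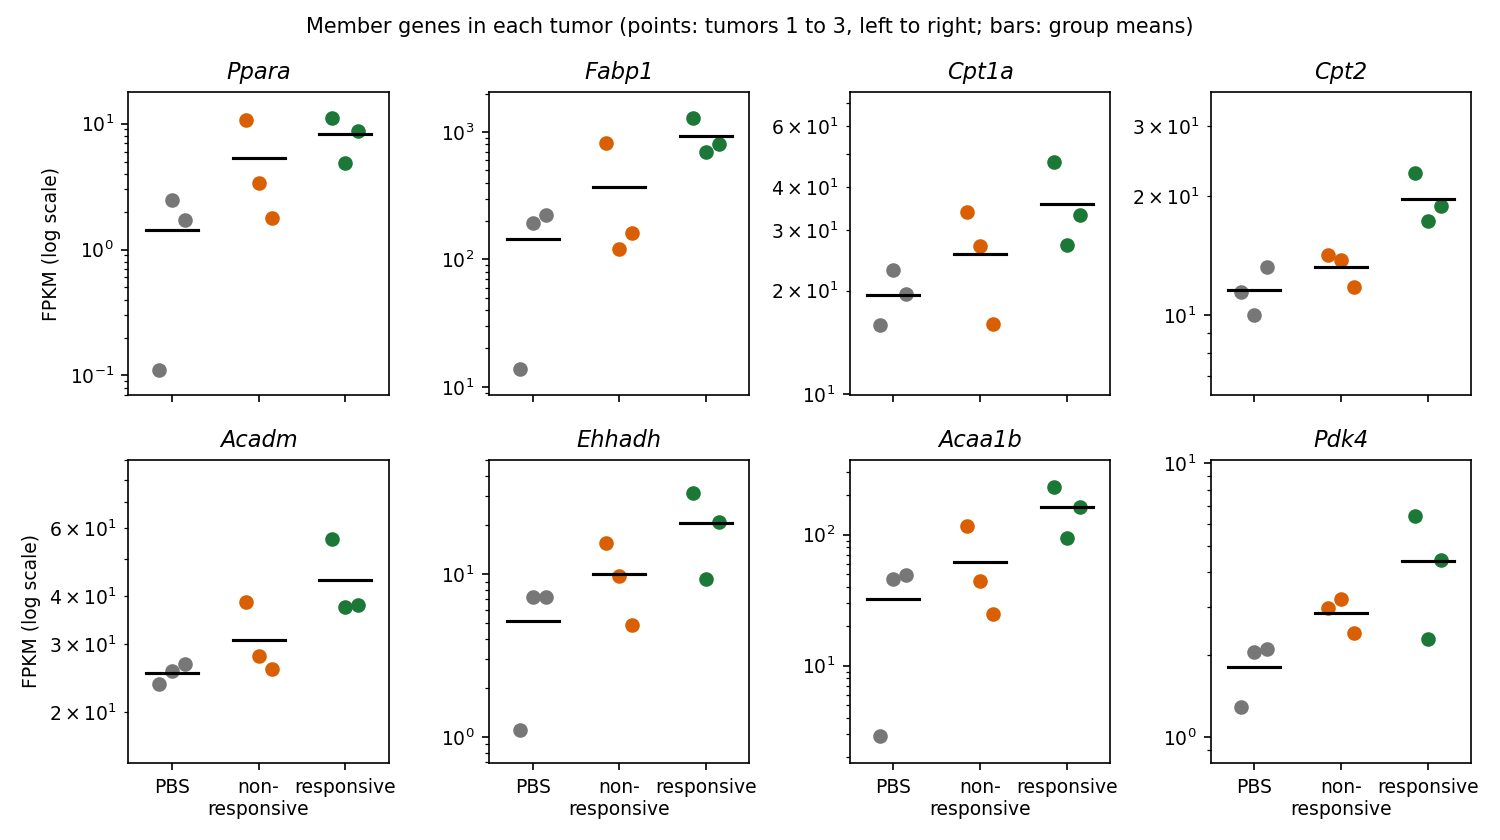
FPKM of each gene in each tumor, on a log scale with its own range per panel; points are tumors 1 to 3 of a group from left to right and bars are group means (n = 3). All responsive tumors lie above all PBS tumors for each of the 8 genes, while nonresponsive and responsive tumors overlap for 7 of them.

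Ppara encodes the receptor itself and was among the lowest expressed of the 8. In PBS tumors 1 to 3 its FPKM was 0.111, 2.48 and 1.71, in nonresponsive tumors 10.7, 3.39 and 1.79, and in responsive tumors 11.1, 4.85 and 8.71. Nonresponsive tumor 1 lay within the range of the responsive group, and the other nonresponsive tumors lay below it. The value of nonresponsive tumor 1 belongs to an entry that Ppara shares there with its neighbor Ttc38, whereas both genes had entries of their own in the other tumors. Ttc38 itself was at 2.32 to 4.24 FPKM in PBS and 5.59 to 9.39 in responsive tumors. The Cufflinks 95% confidence interval of Ppara reached 0 in PBS tumor 1 and nonresponsive tumor 3.

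Fabp1 encodes the liver fatty acid-binding protein, which carries fatty acids through the cytosol of hepatocytes, and it was the most highly expressed of the 8. Its FPKM was 13.7, 195 and 225 in the PBS group, 825, 122 and 161 in the nonresponsive group and 1290, 691 and 801 in the responsive group. Responsive tumors lay above all PBS tumors, and nonresponsive tumor 1 again lay among them.

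Cpt1a and Cpt2 encode the outer and inner carnitine palmitoyltransferases of mitochondria, the former being the controlled entry step. Cpt1a was at 15.9, 23.0 and 19.5 FPKM in the PBS group, 33.8, 27 and 16 in the nonresponsive group and 47.2, 27.1 and 33.1 in the responsive group. Cpt2 was at 11.4, 10.03 and 13.2 FPKM in the PBS group, 14.2, 13.8 and 11.8 in the nonresponsive group and 22.9, 17.3 and 18.8 in the responsive group. Cpt2 was the only one of the 8 whose responsive tumors all exceeded all nonresponsive tumors.

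Acadm encodes medium-chain acyl-CoA dehydrogenase, which begins each mitochondrial cycle on medium-chain substrates. It was at 23.6, 25.6 and 26.7 FPKM in the PBS group, 38.6, 28 and 26 in the nonresponsive group and 56.3, 37.5 and 38.0 in the responsive group. On the log2 scale its spread within the PBS group was the narrowest of the 8 genes (SD 0.09), at a mean of 25.3 ± 1.54 (SD, n = 3).

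Ehhadh encodes the peroxisomal bifunctional enzyme that hydrates and oxidizes the chain, and Acaa1b a peroxisomal thiolase that cleaves it. Ehhadh was at 1.11, 7.22 and 7.24 FPKM in the PBS group, 15.5, 9.68 and 4.84 in the nonresponsive group and 31.5, 9.29 and 20.9 in the responsive group. Acaa1b was at 2.89, 45.5 and 48.8 FPKM in the PBS group, 117, 44.0 and 24.7 in the nonresponsive group and 233, 94.7 and 164 in the responsive group. For both genes, PBS tumor 1 was far below its 2 group mates. Acaa1b has a near-identical paralog, Acaa1a, between which fragments could be split by the assembly. The ratio of Acaa1b to Acaa1a ranged from 0.0661 in PBS tumor 1 to 2.24 in responsive tumor 1, and Acaa1a itself ranged only from 43.7 to 104 FPKM.

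Pdk4 encodes a kinase that shuts off pyruvate dehydrogenase and so favors fatty acids over glucose as fuel. It was at 1.29, 2.05 and 2.1 FPKM in the PBS group, 2.96, 3.20 and 2.40 in the nonresponsive group and 6.43, 2.29 and 4.45 in the responsive group. Its nonresponsive tumors all exceeded the PBS tumors by a small margin, and responsive tumor 2 lay below the nonresponsive group.

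The comparison of responsive with PBS tumors asks how tumors that stayed small under antibody differ from untreated ones. All 8 genes were higher in responsive tumors at an unadjusted p below 0.05 (limma on log2(FPKM + 1), two-sided), where 8.48% of the 13841 features tested were higher by that rule. None passed after Benjamini-Hochberg adjustment over all features, with adjusted p between 0.281 and 0.288 in limma, and 0.231% of features did. All 8 had groups that did not overlap, against 11.6% of features. The median difference of the 8 was 1.38 on the log2 scale, beside -0.11 over all features.

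Mean Fabp1 was 6.42 times higher in responsive than in PBS tumors, 927 ± 319 against 145 ± 114 FPKM (SD, n = 3 each). Its difference of 3.37 on the log2(FPKM + 1) scale (SE 1.11) was the largest of the 8, and 0.809% of features had a larger one. Acaa1b differed by 2.89 (SE 1.07), with means of 164 ± 69.1 and 32.4 ± 25.6 FPKM. Ehhadh, at 20.6 ± 11.1 against 5.19 ± 3.54 FPKM, differed by 1.89 (SE 0.70). These 3 differences rest in part on the low PBS tumor 1, and without that tumor they were 2.09 for Fabp1, 1.68 for Acaa1b and 1.24 for Ehhadh.

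Ppara was 5.73 times higher, 8.23 ± 3.17 against 1.44 ± 1.21 FPKM, a log2 difference of 2.01 (SE 0.51) with an unadjusted p of 0.00874 and an adjusted p of 0.281 in limma. Cpt2 had the smallest unadjusted p of the 8, 0.00852 (limma, adjusted p 0.281), at a log2 difference of 0.72 (SE 0.18) and means of 19.7 ± 2.88 and 11.6 ± 1.6 FPKM. Log2 differences were 0.83 (SE 0.26) for Cpt1a, 0.75 (SE 0.21) for Acadm and 0.87 (SE 0.34) for Pdk4. On linear means Cpt1a was 1.84 times, Acadm 1.74 times and Pdk4 2.42 times higher. Log2 differences were 1.89 or more for Ppara, Fabp1, Ehhadh and Acaa1b and below 1 for Cpt1a, Cpt2, Acadm and Pdk4. These bounds depended on the setting. With a pseudocount of 0.1 Pdk4 differed by 1.14, and without PBS tumor 1 Ppara differed by 1.52 and Ehhadh by 1.24.

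Per-tumor confidence intervals of Cufflinks, which cover the estimate and not the spread between mice, were separate in all 9 pairs of a responsive and a PBS tumor for 6 of the genes, in 7 pairs for Ppara and in 6 for Pdk4. An exact permutation test of a single gene cannot go below 0.10 with 3 tumors against 3, and each of the 8 genes reached that value here. Leaving out 1 tumor at a time left 4 to 7 of the 8 genes past the threshold, 5 without PBS tumor 1 and 4 without responsive tumor 1 or responsive tumor 3. Ppara, Cpt2 and Acadm passed in all 6 of these fits. Fabp1 and Acaa1b passed in the 3 that left out a PBS tumor and in none that left out a responsive tumor.

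**Figure D2:**
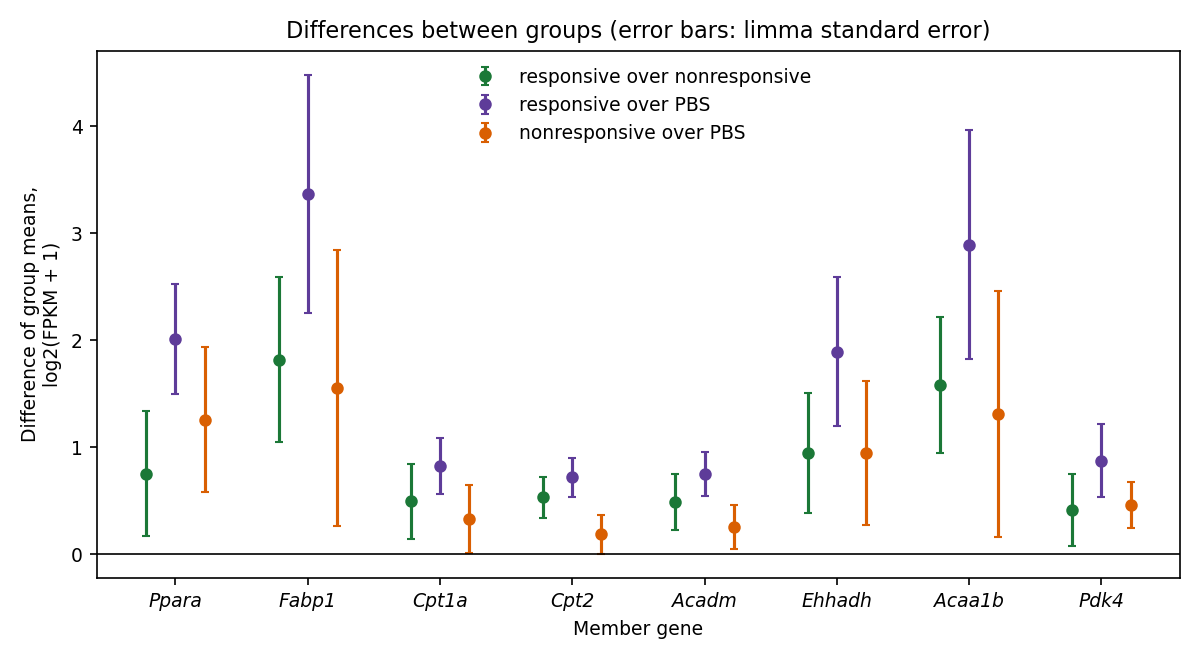
Difference of group means on the log2(FPKM + 1) scale for each gene in the 3 comparisons; points are differences and bars 1 standard error of limma (3 tumors per group). The differences of responsive over PBS tumors run from 0.72 for Cpt2 to 3.37 for Fabp1, and those of nonresponsive over PBS tumors from 0.19 to 1.55.

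The comparison of responsive with nonresponsive tumors sets the smallest antibody-treated tumors against the largest. Of the 8 genes, 2 were higher at an unadjusted p below 0.05, Cpt2 and Acaa1b, where 4.05% of 13832 features were higher by that rule and 0.116% of features passed after adjustment. None of the 8 passed after adjustment, with adjusted p from 0.886 to 0.973 in limma. Cpt2 differed by 0.53 on the log2 scale (SE 0.19, limma, unadjusted p 0.0332, adjusted p 0.886), at means of 19.7 ± 2.88 and 13.2 ± 1.31 FPKM. Acaa1b differed by 1.58 (SE 0.63, limma, unadjusted p 0.0472, adjusted p 0.886), at 164 ± 69.1 and 62.0 ± 48.8 FPKM, although nonresponsive tumor 1, at 117, exceeded responsive tumor 2, at 94.7. Groups of Cpt2 did not overlap, which held for 5.78% of features in the direction of responsive tumors.

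Fabp1 had the largest difference, 1.82 (SE 0.77), with an unadjusted p of 0.0570 and an adjusted p of 0.886 in limma. The nonresponsive tumors varied widely in Fabp1, with a mean of 369 ± 395 FPKM (SD, n = 3). The other 5 genes had differences of 0.94 (SE 0.56) for Ehhadh, 0.75 (SE 0.59) for Ppara, 0.49 (SE 0.35) for Cpt1a, 0.49 (SE 0.26) for Acadm and 0.41 (SE 0.34) for Pdk4. The median of the 8 was 0.64, beside -0.07 over all features.

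Calls in this comparison depended on single tumors. Without nonresponsive tumor 1 there were 4 calls (Ppara, Cpt2, Acaa1b and Fabp1), and without responsive tumor 2 there were 4 (Cpt2, Ehhadh, Acaa1b and Pdk4). There were 0 without nonresponsive tumor 2, the one with pancreatic markers, or nonresponsive tumor 3, the one with the highest muscle markers. The same held without responsive tumor 1 or responsive tumor 3. Ppara and Ttc38 were also summed as 1 locus in every tumor, because they share an entry in nonresponsive tumor 1. The locus differed by 1.01 (SE 0.38, limma, unadjusted p 0.0353, adjusted p 0.836). From PBS tumors it differed by 1.61 (SE 0.38) in responsive and 0.60 (SE 0.42) in nonresponsive tumors. Without joining, these differences of Ppara were 2.01 and 1.26.

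The comparison of nonresponsive with PBS tumors sets the antibody-treated tumors that grew largest against untreated ones. Of the 8 genes, 0 were higher at an unadjusted p below 0.05 in limma, where 1.51% of 13793 features were. Adjusted p ranged from 0.718 to 0.720, and 0.0798% of features passed after adjustment. Pdk4 came nearest, with a difference of 0.46 (SE 0.22, limma, unadjusted p 0.0796, adjusted p 0.718) and groups that did not overlap, as for 3.23% of features. None of its 9 tumor pairs had separate confidence intervals. Differences of the other genes ran from 0.19 (SE 0.18) for Cpt2 to 1.55 (SE 1.29) for Fabp1, and nonresponsive means were higher for all 8. Without PBS tumor 1 the differences of Fabp1 and Acaa1b were 0.27 and 0.10. Without nonresponsive tumor 3, Cpt1a alone passed, at a difference of 0.62. The comparisons share tumors, so their values for a gene are not independent of each other.

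The 8 genes varied together over the 9 tumors, with Pearson correlations of log2(FPKM + 1) between 0.73 and 0.98 over the 28 pairs and a median of 0.86. These are descriptions over 9 tumors that share the group structure. After subtraction of group means the correlations lay between 0.28 and 0.96 with a median of 0.72. Without the tumors at the extremes, PBS tumor 1 and responsive tumor 1, they lay between 0.41 and 0.94.

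Hepatocyte markers moved with the 8 genes. The mean log2 level of the 16 hepatocyte markers and that of the 8 genes put the 9 tumors in the same order, from responsive tumor 1 at 8.55 and 5.72 down to PBS tumor 1 at 3.28 and 2.57. Nonresponsive tumor 1, at 7.54 and 5.06, stood in both above responsive tumor 2, at 7.52 and 4.74. The correlation with the hepatocyte mean was highest for Acaa1b, at 0.99, and lowest for Cpt2, at 0.78, as a description over 9 tumors in which the slope was 1.13 log2 units per log2 unit for Acaa1b and 0.18 for Cpt2. Fabp1 had the steepest slope, 1.26, followed by Acaa1b, with 0.72 for Ehhadh and 0.70 for Ppara and 0.28 or less for Cpt1a, Pdk4, Acadm and Cpt2. Of the markers, 14 of 16 were higher in responsive than PBS tumors and 9 of 16 higher in responsive than nonresponsive tumors, by the same unadjusted rule. In nonresponsive over PBS tumors 0 of 16 were higher. Of all features, 8.48%, 4.05% and 1.51% were higher in these comparisons in turn.

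**Figure D3:**
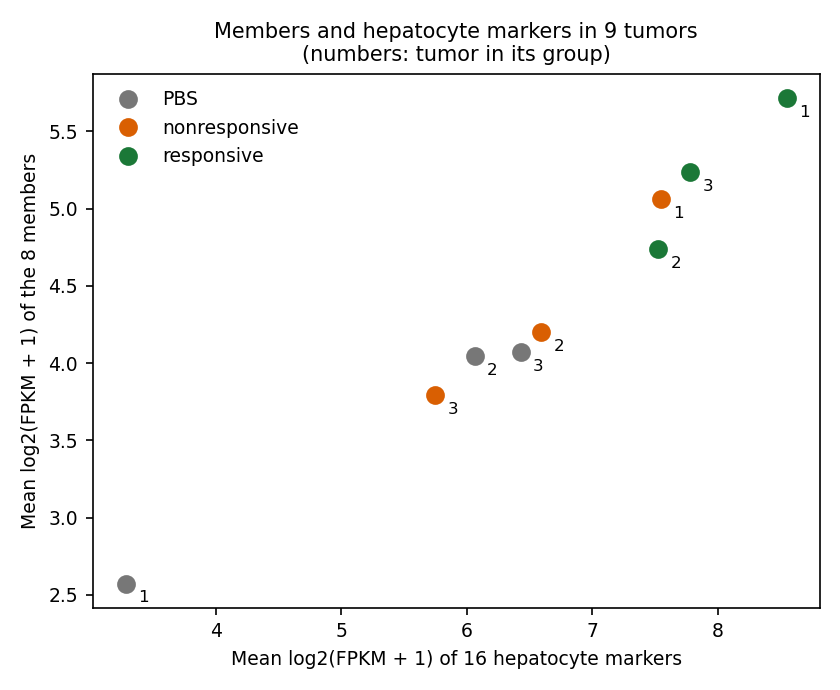
Mean log2(FPKM + 1) of the 8 genes (vertical) against that of 16 hepatocyte markers (horizontal); each point is a tumor, numbered within its group. The 9 tumors have the same order on both axes, with PBS tumor 1 at 3.28 and 2.57 and responsive tumor 1 at 8.55 and 5.72.

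With the hepatocyte mean as a covariate in a fit of all 9 tumors, 0 of the 8 genes passed the unadjusted threshold in any comparison (limma). For responsive over PBS tumors the remaining differences ran from -0.37 (SE 0.29) for Acaa1b to 0.54 for Cpt2, with 5 of 8 above 0. That of Cpt2 had an SE of 0.25 (limma, unadjusted p 0.0700, adjusted p 1.00). Acadm was at 0.37 (SE 0.29), Pdk4 at 0.34 (SE 0.41), Ppara at 0.28 (SE 0.51) and Cpt1a at 0.14 (SE 0.37). For responsive over nonresponsive tumors Cpt2 had a difference of 0.45 (SE 0.19, limma, unadjusted p 0.0523, adjusted p 0.547), while Acaa1b was at -0.02 (SE 0.22). The covariate differs between the groups, so differences that go with it and differences between groups cannot be told apart fully in this fit. Expressed as a percent of Alb, Ehhadh lay between 0.360% and 0.865% in the 9 tumors, whereas Cpt2 lay between 0.428% and 6.61% with the highest value in PBS tumor 1.

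Genes whose level over the 9 tumors was most like the mean of the 8 were Cyp27a1 (r = 0.998), the feature shared by Cyp4v3, Gm45753 and Klkb1 (r = 0.997), Masp1 (r = 0.997), Cyp2d10 (r = 0.996) and Sec14l2 (r = 0.995). Cyp27a1, the mitochondrial sterol 27-hydroxylase of bile acid synthesis, was at 5.10, 21.9 and 24.1 FPKM in the PBS group, 56.6, 28.6 and 17.0 in the nonresponsive group and 95.8, 41.4 and 61.6 in the responsive group. Of 10776 genes with an FPKM of at least 1 in all tumors, 494 (4.58%) had r above 0.9.

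The other 97 genes of the pathway were counted in 9 lists. In responsive over PBS tumors 47 of 90 features tested (52.2%) were higher and 0 lower at an unadjusted p below 0.05 (limma). Of all features, 8.48% were higher and 8.76% lower there. In responsive over nonresponsive tumors 21 of 91 (23.1%) were higher and 0 lower, beside 4.05% and 1.44% of all features. In nonresponsive over PBS tumors 4 of 87 (4.6%) were higher and 0 lower, beside 1.51% and 1.71% of all features. Of these calls, 2 against PBS and 2 against nonresponsive tumors were features below 1 FPKM in all tumors of the lower group, which entered the test only through the responsive group and so had to differ. Without them the counts were 45 of 88 (51.1%) and 19 of 89 (21.3%). None passed after adjustment in any comparison. The shares of all features given here also apply beside the counts of each list below. Ppard and some of the genes named below in counts of 5 or fewer were chosen after their values were seen.

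Of 10 receptors and cofactors tested, 2 were higher in responsive than PBS tumors: Rxra, its binding partner on DNA, by 1.28 (SE 0.36), and Creb3l3, a liver transcription factor of the fasting response, by 2.37 (SE 0.84). None was called between responsive and nonresponsive tumors. Ppard, the receptor's broadly expressed relative, was at 10.6 to 16.7 FPKM in PBS and 13.3 to 14.9 in responsive tumors, a difference of 0.09 (SE 0.20). Pparg, the receptor of fat storage, was the 1 gene of the list higher in nonresponsive than PBS tumors, by 1.07 (SE 0.37). It was at 4.06, 3.30 and 5.47 FPKM in nonresponsive tumors 1 to 3, where Adipoq was at 0.181, 6.54 and 1.01, and the part of adipocyte transcripts in the result was not tested. Rxrb was listed at 0 in nonresponsive tumor 1 and responsive tumor 1 and at 19.3 to 39.9 FPKM elsewhere.

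Among 13 genes of fatty acid uptake, binding and activation, 5 were higher in responsive than PBS tumors (Slc27a2, Slc27a5, Fabp2, Acsl1 and Dbi) and 3 higher than in nonresponsive tumors (Slc27a2, Slc27a5 and Fabp2). Slc27a2, a long-chain acyl-CoA synthetase and transporter of liver, was at 2.45, 20.9 and 28 FPKM in the PBS group, 66.3, 31.1 and 19.3 in the nonresponsive group and 158, 71.3 and 88.6 in the responsive group. Acsl5 differed by -0.29 (SE 0.26) and Fabp5 by 0.74 (SE 0.58) between responsive and PBS tumors. Cd36, a fatty acid receptor also found on macrophages, was at 73.3 FPKM in responsive tumor 1 but at 10.3 and 16.5 in the other responsive tumors.

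Of 8 carnitine shuttle genes, 4 were higher in responsive than PBS tumors (Cpt1b, Slc25a20, Bbox1 and Mlycd). Slc25a20, the carnitine-acylcarnitine carrier that works between the products of Cpt1a and Cpt2, differed by 0.75 (SE 0.22), close to the 0.83 of Cpt1a and 0.72 of Cpt2. Bbox1, the last enzyme of carnitine synthesis, was the 1 gene also higher than in nonresponsive tumors, by 1.44 (SE 0.58). The value of Cpt1b, the muscle form of the first transferase, belongs to a feature shared with Chkb. Cpt1c, the neuronal form, differed by -1.02 (SE 0.50) and was not called.

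Mitochondrial beta-oxidation had 11 of 14 features higher in responsive than PBS tumors, with a median difference of 0.77. Acaa2, the last thiolase of the mitochondrial cycle, had the largest difference from nonresponsive tumors in this list, 1.23 (SE 0.42), and was at 25.4 to 61.6 FPKM in the PBS group, 44.7 to 122 in the nonresponsive group and 134 to 225 in the responsive group. In that comparison 5 were higher (Acadvl, Acaa2, Eci1, Decr1 and Etfa). Among the acyl-CoA dehydrogenases, Acadm and Acadvl were higher in responsive than PBS tumors, by 0.75 and 1.02. Acadl differed by -0.14 (SE 0.19) and Acads by -1.12 (SE 0.85), neither of them called, and differences between these genes were not tested. Acads, the short-chain enzyme, varied from 28.1 FPKM in nonresponsive tumor 2 to 366 in responsive tumor 2. Hadh was the 1 gene of this list higher in nonresponsive than PBS tumors.

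Peroxisomal oxidation had 12 of 16 features higher in responsive than PBS tumors, with a median difference of 1.17. Phyh, which begins the breakdown of branched chains, differed by 2.40 (SE 0.70) from PBS and by 1.33 (SE 0.47) from nonresponsive tumors. Against nonresponsive tumors 5 of 17 were higher (Ech1, Pex11a, Amacr, Phyh and Crot). Decr2 was the 1 gene of this list higher in nonresponsive than PBS tumors.

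Omega-oxidation of fatty acids in the endoplasmic reticulum is carried out by Cyp4a enzymes, classical targets of PPAR-alpha. Cyp4a10 was at 0.112, 1.35 and 1.02 FPKM in the PBS group, 0.809, 0.814 and 0.273 in the nonresponsive group and 7.19, 5.41 and 8.19 in the responsive group. Responsive tumors stood apart from both other groups. Nonresponsive tumor 1, which lay among the responsive tumors for Fabp1 and, in an entry shared with Ttc38, for Ppara, did not here. Cyp4a10 was below 1 FPKM in all nonresponsive tumors and was admitted to that comparison only by the responsive group. For that reason no test of it is given there. Its difference from PBS tumors was 2.17 (SE 0.34, limma, unadjusted p 0.000823, adjusted p 0.211). In responsive tumor 3 its entry was shared with Cyp4a31 and Cyp4a32, and these paralogs are so similar that fragments could be split among them. Cyp4a12a, at 14.8 to 33.2 FPKM in responsive and 2.98 to 18.8 in nonresponsive tumors, overlapped between these groups. Its entry was shared with Cyp4a12b in responsive tumor 1, at 33.2, and in nonresponsive tumor 3, at 6.93. Cyp4a14, named after its values were seen and too low to be tested, was at 0.195, 2.09 and 0.540 FPKM in responsive tumors and at most 0.0431 in the other 6.

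Of 4 genes of ketone body synthesis, 3 were higher in responsive than PBS tumors, among them Bdh1, which interconverts the ketone bodies, by 2.26 (SE 0.81). Acat1 was the 1 gene of this list higher in nonresponsive than PBS tumors, by 1.13 (SE 0.37).

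Other known targets of PPAR-alpha had 4 of 11 features higher in responsive than PBS tumors (Plin5, Vnn1, Mgll and the feature shared by Acot3, Acot4 and Gm49366) and 3 of 11 higher than in nonresponsive tumors, the same without Vnn1. The Acot3 feature was at 0.0732 to 0.487 FPKM in the PBS group, 0.228 to 0.560 in the nonresponsive group and 1.42 to 5.28 in the responsive group, so it is one of those that entered both tests only through the responsive group. The most highly expressed of them gave no call. Plin2, a coat protein of lipid droplets in many cell types, was at 315 to 465 FPKM in PBS and 267 to 414 in responsive tumors, a difference of -0.23 (SE 0.27). Ucp2, a mitochondrial carrier also expressed in immune cells, differed by 0.28 (SE 0.25), and G0s2, an inhibitor of lipolysis, ranged from 5.45 to 296 FPKM.

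Among 9 other genes of pyruvate dehydrogenase control, 2 were higher in responsive than PBS tumors, Pdk2 by 1.13 (SE 0.25) and Mpc2, a subunit of the pyruvate carrier, by 1.13 (SE 0.29). Pdk1, the kinase known for induction under low oxygen, differed by -0.48 (SE 0.21) from PBS and by -0.52 (SE 0.31) from nonresponsive tumors. Per length, Pdk4 was the least expressed of these kinases in PBS tumors, with a mean of 1.81 FPKM against 4.92 for Pdk2. Pdha1, a subunit of the dehydrogenase itself, was at 33.6 to 58.2 FPKM over all tumors and was not called.

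**Figure D4:**
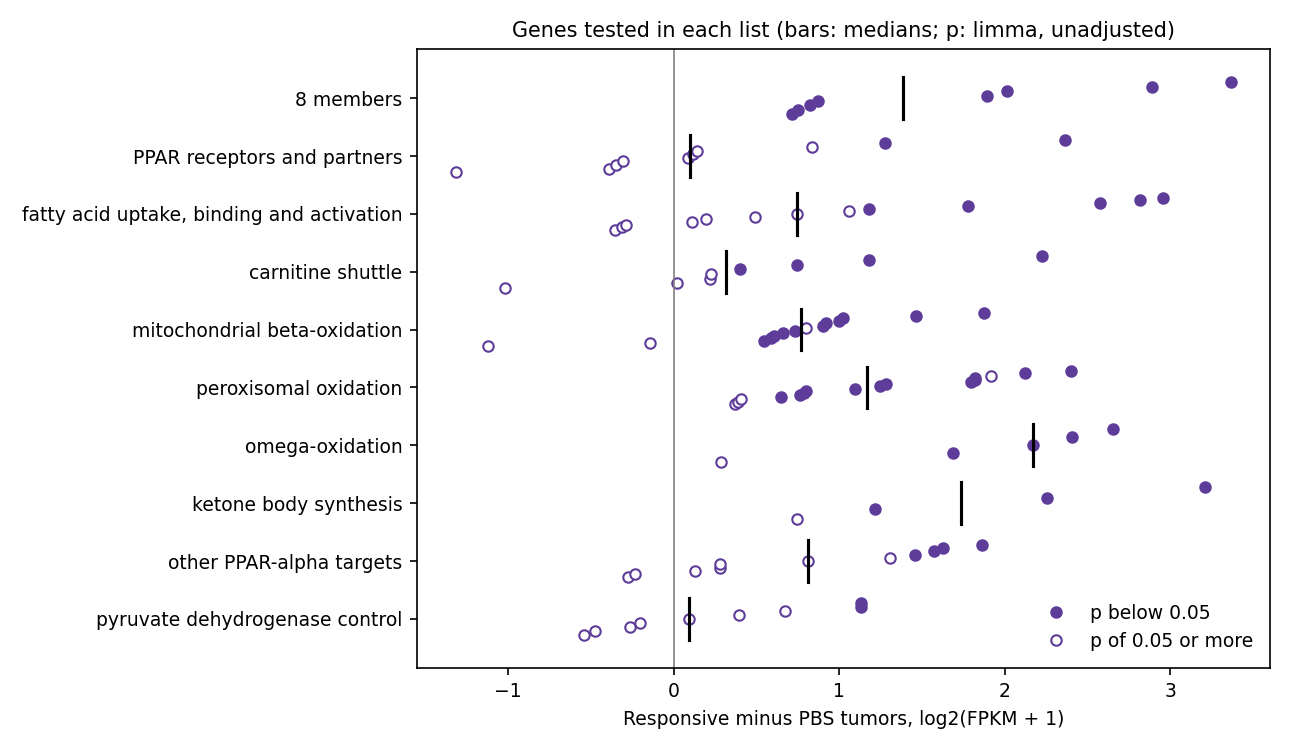
Difference of responsive minus PBS tumors on the log2(FPKM + 1) scale for the 8 genes and for each feature tested in 9 other pathway lists; filled points have an unadjusted p below 0.05 in limma, open points do not, and bars are medians. Filled points number 8 of 8 for the first line and 47 of 90 for the lists together, and no filled point lies below 0. Of all features tested, 8.48% were higher by this rule.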

How the data were processed

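Total RNA of 9 tumors was sequenced as bulk tissue by the authors. They deposited 1 Cufflinks table per tumor with the FPKM of each entry and its 95% bounds. Their processing notes name TopHat2 2.1.1, Bowtie2 2.2.4 and the genome build mm8. Coordinates in the tables are not those of GRCm38, since 1059 of 32189 entries compared had the same position, so none is printed. A further deposited table holds the authors' fold changes, p-values and q-values between groups and was not used.

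The FPKM of a gene was the sum over all entries naming it in a tumor. Of the 8 genes, 7 were alone in their entry in all tumors. Genes with identical values in all tumors were counted as 1 feature. Entries naming no gene were left out. Each comparison took its 6 tumors into a linear model of log2(FPKM + 1), fitted by limma 3.58.1 under R 4.3.3 with trended, non-robust eBayes. Features reaching an FPKM of 1 in 3 or more tumors were tested, with Benjamini-Hochberg adjustment over all of them. On this scale, changes of weakly expressed genes are understated. The fit was tested on simulated data. Tables and plots used Python 3.11.15 with numpy 2.4.6, pandas 2.3.3, scipy 1.17.1 and matplotlib 3.10.9. The depth behind each FPKM is unknown, and the number of tumors limits the precision.

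The genes and lists were chosen with earlier results of these data known. Besides the 8 genes, the text names per list up to 3 genes of highest mean FPKM, the largest and smallest log2 differences of responsive over nonresponsive tumors, and the 5 genes most correlated with the mean of the 8. Markers covered hepatocytes, fetal liver and tumor, macrophages, T cells, neutrophils, endothelium, fibroblasts, adipocytes, skeletal muscle and pancreatic acini. The ranges of summed marker FPKM not given elsewhere were, for PBS, nonresponsive and responsive tumors in turn, 588 to 1251, 1103 to 2276 and 959 to 1807 for macrophages, 33.2 to 121, 73.0 to 77.2 and 82.5 to 122 for T cells, and 172 to 2431, 519 to 5033 and 405 to 3260 for neutrophils. They were 51.1 to 102, 63.1 to 130 and 72.1 to 108 for endothelium and 2483 to 3884, 2704 to 4417 and 2340 to 2396 for fibroblasts. Alternatives were upper-quartile scaling, a pseudocount of 0.1, an FPKM filter at 5 or none, a replicate block, a joint fit of all 9 tumors, genes sharing an entry joined into 1 locus, the hepatocyte mean as a covariate, an unmoderated test, and leaving out each tumor. Some genes of the lists are not reported here by name.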

Additional observations from a re-analysis of the deposited data

How the results depend on the processing

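Of 355 recomputed values, 292 kept their direction and side of the threshold (or, for counts, stayed within 1.5 times), 45 were weaker, 8 stronger and 10 reversed. For responsive over nonresponsive tumors the 2 calls among the 8 genes became 1 with no filter, with upper-quartile scaling, with all 9 tumors in 1 fit and with the unmoderated test, 4 with genes sharing an entry joined, 0 with the hepatocyte covariate, and 0 to 4 when a tumor was left out. For responsive over PBS tumors the 8 calls became 3 with the replicate block, 0 with the covariate, 4 with the unmoderated test and 4 to 7 when a tumor was left out. For nonresponsive over PBS tumors the count of 0 became 1 at most, without nonresponsive tumor 3, and ranged from 0 to 1. Over all features, the 759 calls of responsive over nonresponsive tumors became 1271 with the covariate and 310 to 1425 when a tumor was left out. The 2387 of responsive over PBS tumors became 948 with the replicate block, 623 with the covariate and 1005 to 3875 when a tumor was left out. The 444 of nonresponsive over PBS tumors became 810 with no filter, 270 with a filter at 5, 237 with the replicate block, 291 with the covariate and 216 to 1859 when a tumor was left out. The filters change the number of features tested and the left-out fits have fewer tumors; for the other settings the cause was not tested.

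All 10 reversals came from the hepatocyte covariate. Log2 differences became -0.097 for Ppara, -0.040 for Ehhadh and -0.018 for Acaa1b in responsive over nonresponsive tumors. They became -0.11 for Ehhadh, -0.37 for Acaa1b and -0.051 for Fabp1 in responsive over PBS tumors. In nonresponsive over PBS tumors they became -0.018 for Cpt1a, -0.071 for Ehhadh, -0.35 for Acaa1b and -0.19 for Fabp1. Correlations of deviations from the group means between same-numbered tumors ran from -0.39 to 0.48. Differently numbered tumors were not compared, so these values cannot decide whether replicate numbers pair the tumors. With the replicate block there were 2 calls among the 8 genes in responsive over nonresponsive tumors, Acaa1b and Fabp1. Cpt2 was not called there (limma, unadjusted p 0.0569). In nonresponsive over PBS tumors there were 0. A filter at an FPKM of 5 left 7 of the 8 genes tested for responsive over nonresponsive tumors and 6 in the other comparisons.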
